A study of Mus musculus with 2 samples.

Results

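The class I antigen presentation genes described here are H2-K1, H2-D1, B2m and Tapbp. They were taken by symbol from the gene list of the deposited matrices, which held 31053 genes, and all 4 were found there once. Dermal cells of the Pdgfra lineage had been sorted from C57BL/6 mice, 8 weeks old and carrying PdgfraDreER-tdTomato, and profiled by droplet-based single-cell RNA sequencing with 1 library each for untreated skin (UT) and for skin after 7 days of imiquimod (IMQ). Imiquimod activates Toll-like receptors, and applied as a cream it causes psoriasis-like inflammation in mice. Both groups received tamoxifen, which lets the DreER recombinase, made under control of Pdgfra, switch on tdTomato, so a cell labelled before treatment stays labelled whatever it expresses later. Live tdTomato-positive, CD45-negative cells were sorted, and the number of mice behind each library was not given in the sources used here. Each group being 1 library, the spread between animals is unknown and nothing was tested. Brackets hold exact 95% intervals for counting error, which is the only error they cover.

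Classical class I molecules are built from a polymorphic heavy chain and the invariant light chain beta-2-microglobulin, and they display peptides from the cytosol to CD8+ T cells on nearly every nucleated cell. Peptides are cut by the proteasome, carried into the endoplasmic reticulum by the TAP transporter and fitted into the groove by a loading complex in which tapasin bridges TAP and the heavy chain. Interferons and NF-kB raise transcription of the pathway through elements upstream of the heavy-chain and light-chain genes, and fibroblasts exposed to interferon are a classical example.

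H2-K1 and H2-D1 encode the heavy chains. H2-K1 (ENSMUSG00000061232) lies on chr17:33996017-34000347, minus strand, and H2-D1 (ENSMUSG00000073411) on chr17:35262730-35267499, plus strand, of GRCm38. B2m (ENSMUSG00000060802), which encodes beta-2-microglobulin, lies outside the MHC on chr2:122147686-122153083, plus strand. Tapbp (ENSMUSG00000024308), which encodes tapasin, lies on chr17:33915899-33929292, plus strand, within the MHC region. The annotation places Patl2 over B2m on the opposite strand, and Zbtb22 on the same strand and Gm19412 on the opposite strand over Tapbp. The heavy chains are close relatives, so the last 500 bases of each transcript, where 3′ libraries are read, were cut into 411 windows of 90 bases. No window of the 4 genes occurred in a transcript of any other gene, so reads of that length from the annotated 3′ ends could be told apart.

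The upstream sequences are shown because heavy-chain and light-chain genes are known to be switched on through shared interferon and NF-kB elements, and because the tapasin gene differed there. These are the 200 bases before the RefSeq start site (GRCm38.p6; for H2-K1 the more downstream of the 2 listed), 5′ to 3′ on the strand of the gene, with matches to AANNGAAA (the core bound by interferon regulatory factors) and to the NF-kB consensus, on either strand, in capitals. The motifs did not overlap each other. The windows are chr17:34000334-34000533 for H2-K1, chr17:35262894-35263093 for H2-D1, chr2:122147487-122147686 for B2m and chr17:33919278-33919477 for Tapbp.
H2-K1: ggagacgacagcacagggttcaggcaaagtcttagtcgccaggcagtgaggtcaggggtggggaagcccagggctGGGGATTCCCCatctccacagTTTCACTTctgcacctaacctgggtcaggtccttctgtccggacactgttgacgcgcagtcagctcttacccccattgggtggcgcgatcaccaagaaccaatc
H2-D1: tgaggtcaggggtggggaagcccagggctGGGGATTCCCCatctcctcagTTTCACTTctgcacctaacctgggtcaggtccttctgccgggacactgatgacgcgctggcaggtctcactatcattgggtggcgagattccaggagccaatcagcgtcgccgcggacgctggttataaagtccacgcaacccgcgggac
B2m: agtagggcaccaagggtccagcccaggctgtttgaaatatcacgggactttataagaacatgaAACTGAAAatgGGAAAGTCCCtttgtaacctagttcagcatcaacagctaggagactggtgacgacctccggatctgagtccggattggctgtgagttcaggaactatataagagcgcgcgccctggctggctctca
Tapbp: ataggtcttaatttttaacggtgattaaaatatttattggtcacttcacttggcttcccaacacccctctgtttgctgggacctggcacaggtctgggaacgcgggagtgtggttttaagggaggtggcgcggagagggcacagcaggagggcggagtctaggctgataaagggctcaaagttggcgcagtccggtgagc

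In H2-K1 and H2-D1 the NF-kB match was followed by AANNGAAA on the opposite strand, and 225 of 300 promoter bases (75.0%) were identical in an alignment of both. In B2m the order was turned around, with AANNGAAA first, and 143 to 154 bases were identical to the heavy-chain promoters. Alignment of the Tapbp promoter gave 141 identical bases with H2-K1 and 140 with H2-D1, so the B2m numbers alone do not show shared sequence. The 300 bases around the Tapbp start, 250 before and 50 after, held no match to the interferon or NF-kB motifs. The RefSeq start used for Tapbp lies inside the gene as annotated, which begins at chr17:33915899. Bases before that position are not shown here. Over 32851 promoters of the same length, AANNGAAA was found in 23.9%, the NF-kB consensus in 4.51%, and the NF-kB consensus together with AANNGAAA in 0.855%. A match describes letters and does not show that a factor binds there.

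The counts were of uneven quality between the libraries. Barcodes were kept when they held 200 to 5000 detected genes and at most 5% mitochondrial unique molecular identifiers (UMIs, one per captured transcript), which left 1045 of 1415 barcodes (73.9%) in UT and 571 of 5047 (11.3%) in IMQ. The kept barcodes held 1104798 and 460947 UMIs, with a median of 741 and 659 UMIs and 391 and 275 genes per barcode. Gm42418, a transcript that overlaps ribosomal RNA repeats, took 1.38% of the kept UMIs in UT and 14.6% in IMQ. UMIs from mitochondrial genes, ribosomal protein genes, Gm42418 and AY036118 made up 24.5% and 36.9%, and 26.3% and 49.2% over all deposited barcodes. Levels are given as CPM, the UMIs of a gene after scaling the named barcodes of a library to 1000000 UMIs in total. The 7 fibroblast markers summed to 80894 CPM in UT and 121734 CPM in IMQ. The 7 keratinocyte markers summed to 1753 CPM and 13.0 CPM, with Krt5, Krt15, Krt1, Dsp and Perp at 0 in IMQ. The 9 leukocyte markers summed to 199 CPM and 91.1 CPM, with Cd3e at 0 in both and Ptprc, Fcer1g and Cd3g at 0 in IMQ. A log2 ratio is that of the IMQ level over the UT level. The median of 8129 genes with at least 10 UMIs had a log2 ratio of -0.61, and 4.03% of these genes were at least 2-fold higher and 32.1% at least 2-fold lower in IMQ.

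In the kept barcodes the levels of both heavy chains and of the light chain were nearly equal in the libraries, and the tapasin gene was lower in IMQ. H2-K1 counted 654 UMIs in UT, a level of 592 CPM (547 to 639), and 289 UMIs in IMQ, a level of 627 CPM (557 to 704). H2-D1 counted 1648 UMIs in UT, 1492 CPM (1421 to 1565), and 661 in IMQ, 1434 CPM (1327 to 1548). For each heavy chain the intervals of the libraries overlapped. B2m counted 1317 UMIs in UT, 1192 CPM (1129 to 1258), and 538 in IMQ, 1167 CPM (1071 to 1270), again with overlapping intervals. The log2 ratio was 0.08 (-0.12 to 0.28) for H2-K1, -0.06 (-0.19 to 0.07) for H2-D1 and -0.03 (-0.18 to 0.12) for B2m. These 3 genes lay 0.70, 0.56 and 0.58 above the median of all genes. Tapbp counted 200 UMIs in UT, 181 CPM (157 to 208), and 38 in IMQ, 82.4 CPM (58.3 to 113), without overlap. Its log2 ratio was -1.13 (-1.68 to -0.63), a level 2.20-fold lower in IMQ and 0.52 below the median of all genes. Of the 4 genes, none was at least 2-fold higher, against 4.03% of all genes, and 1 was at least 2-fold lower, against 32.1%.

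**Figure D1:**
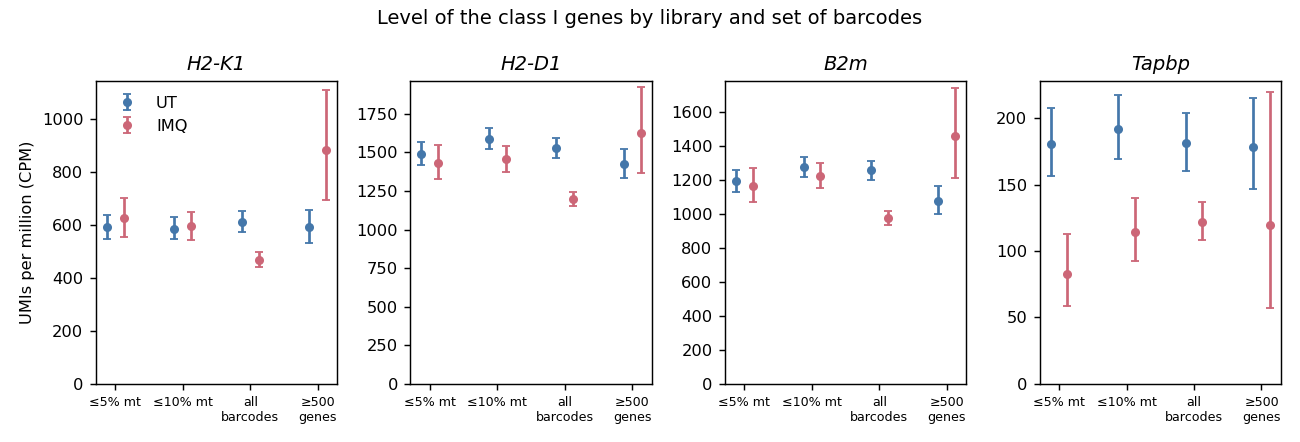
Level of each class I gene in CPM (vertical axis, from 0) in UT (blue) and IMQ (red) for 4 sets of barcodes, with exact 95% Poisson intervals. H2-K1, H2-D1 and B2m are nearly equal at the limit of 5% mitochondrial UMIs and lower in IMQ over all barcodes, and Tapbp is lower in IMQ in each set, with overlapping intervals in barcodes of at least 500 genes.

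How far the near-equality of the heavy and light chains held depended on which barcodes were read. With up to 10% mitochondrial UMIs, 1301 UT and 1043 IMQ barcodes, the log2 ratio was 0.02 for H2-K1, -0.13 (-0.23 to -0.02) for H2-D1 and -0.06 for B2m. Tapbp then stood at 192 and 114 CPM, with a log2 ratio of -0.75 (-1.10 to -0.40). Over all deposited barcodes each of the 4 genes was lower in IMQ, with log2 ratios of -0.39 for H2-K1, -0.35 for H2-D1, -0.37 for B2m and -0.57 for Tapbp. The median gene was lower still in that set, at -1.04, and the sum of the 4 genes, 3577 CPM in UT and 2760 CPM in IMQ, lay 0.67 above it. In that set a single UT barcode with over 5000 detected genes held 127 of 932 H2-K1 UMIs. With the UMIs of each gene in its richest barcode of either library taken out, the ratios were -0.22 for H2-K1, -0.27 for H2-D1 and -0.28 for B2m. Here, and for ratios without the richest cells in the text below, only the UMIs of that gene were taken out. The total of the library was left as it was, so these are not ratios with the whole barcode removed. When the RNA classes named above were taken out of the total, the kept barcodes gave 0.34 for H2-K1, 0.20 for H2-D1 and 0.23 for B2m, all with intervals above 0, and -0.88 for Tapbp. The H2-D1 and B2m ratios of the kept barcodes thus changed sign with the scaling, and that of H2-K1 was above 0 on either scale.

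**Figure D2:**
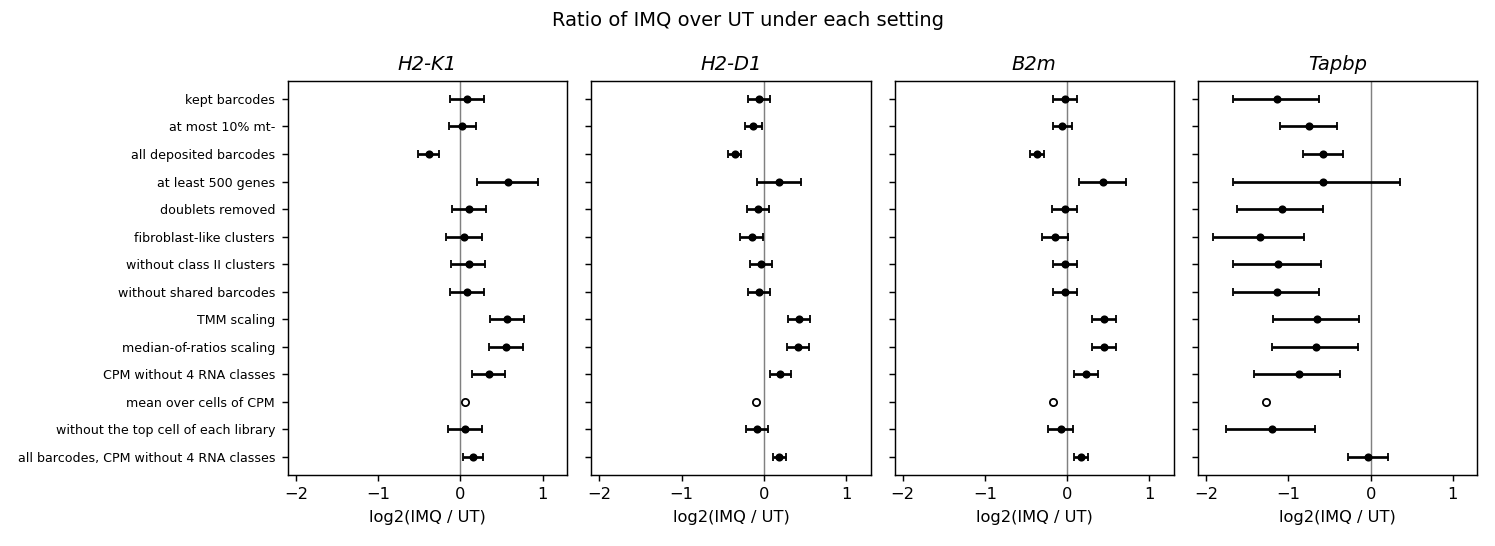
Log2 ratio of IMQ over UT (horizontal axis) for each class I gene under each choice of barcodes and scaling (vertical axis), with exact 95% intervals. Open circles are means over cells, which have no counting interval, and the 4 RNA classes are mitochondrial genes, ribosomal protein genes, Gm42418 and AY036118. H2-K1, H2-D1 and B2m fall on both sides of 0, from -0.39 to 0.58, and every Tapbp value lies below 0, from -1.34 to -0.035.

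Barcodes below the gene limit made the dependence visible. The 3621 IMQ barcodes with under 200 genes held 874 B2m UMIs at 756 CPM (707 to 808), against 1167 CPM in the kept ones. Gm42418 alone took 30.7% of their UMIs. With the RNA classes out of the total, B2m stood at 1817 CPM in these barcodes and 1851 CPM in the kept ones. H2-D1 stood at 2359 and 2274 CPM and H2-K1 at 827 and 994 CPM on the same scale. Tapbp was the exception, at 301 CPM in the poor barcodes and 131 CPM in the kept ones. The 472 IMQ barcodes with over 5% to 10% mitochondrial UMIs also had more Tapbp, 153 CPM (116 to 197), than the 82.4 CPM of the kept ones. The Tapbp difference between libraries was thus larger at the limit of 5% than at 10% or over all barcodes. With all deposited barcodes and without the RNA classes its log2 ratio was -0.035 (-0.28 to 0.21).

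Cells were also split by their UMI total. Among cells with at least 500 and fewer than 1000 UMIs, 476 in UT and 338 in IMQ, B2m stood at 1349 and 1160 CPM and H2-K1 at 632 and 697 CPM. Among cells with at least 1000 and fewer than 2000 UMIs, 248 in UT and 103 in IMQ, all 4 genes were lower in IMQ, with log2 ratios of -0.43 (-0.73 to -0.14) for B2m, -0.43 for H2-K1, -0.27 for H2-D1 and -1.72 for Tapbp. Among cells with at least 2000 UMIs, 87 in UT and 10 in IMQ, the heavy and light chains were higher in IMQ. B2m stood there at 870 and 1653 CPM, with a log2 ratio of 0.93 (0.55 to 1.29), H2-K1 at 566 and 941 CPM, and H2-D1 at 1257 and 1653 CPM. Tapbp stood there at 134 and 126 CPM, with a log2 ratio of -0.10 (-1.62 to 1.14). The IMQ level of B2m in this stratum rests on 79 UMIs in 10 cells, and no ratio was taken without the richest cell. Cluster 4 of the clustering below, led by Malat1 and keratins and not fibroblast-like, had a median of 3808 UMIs per cell. Most of its cells thus fall in this stratum, but their number was not counted and their part in the difference was not tested. In barcodes with at least 500 genes, 303 in UT and 37 in IMQ, B2m had a log2 ratio of 0.44, H2-K1 of 0.58 and H2-D1 of 0.19. A single IMQ cell held 29 of the 122 B2m UMIs in that set. With the UMIs of each gene in its richest cell of each library taken out and the totals unchanged, the values were 0.10, 0.27 and -0.03. In this set no ratio was taken with the whole cells removed, so the part of these cells in the difference stays unknown.

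The proportions among heavy and light chains were close between the libraries in the kept and in all deposited barcodes, but not in every kind of barcode. There were 1.75 heavy-chain UMIs (1.63 to 1.87) per B2m UMI in UT and 1.77 (1.59 to 1.97) in IMQ, and over all deposited barcodes 1.70 and 1.71. H2-K1 gave 28.4% (26.6 to 30.3) of the heavy-chain UMIs in UT and 30.4% (27.5 to 33.5) in IMQ, and 28.6% and 28.1% over all deposited barcodes. In the 256 UT barcodes with over 5% to 10% mitochondrial UMIs the H2-K1 share was lower, 21.2% (17.9 to 24.8), against 27.4% (24.3 to 30.7) in the IMQ barcodes of that kind. With at least 500 genes it was 29.3% in UT and 35.2% (28.8 to 42.1) in IMQ, and with over 5000 genes 43.0% in 2 UT barcodes and 54.1% in 1 IMQ barcode. The heavy chains had 1.13 UMIs per B2m UMI in UT barcodes with over 10% mitochondrial UMIs and 0.77 in those with under 200 genes, which held 56 and 31 B2m UMIs. Tapbp gave 15.2 UMIs (13.0 to 17.6) per 100 B2m UMIs in UT and 7.06 (4.94 to 9.82) in IMQ. Over all deposited barcodes these were 14.4 and 12.5, with overlapping intervals. The ratio to B2m does not depend on the total of the library.

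Shares of cells with a UMI were compared after each cell had been thinned to 400 UMIs, which kept 972 of the UT and 538 of the IMQ cells. H2-K1 was seen in 18.4% (16.0 to 21.0) of UT and 19.7% (16.4 to 23.3) of IMQ cells. H2-D1 was seen in 42.0% (38.8 to 45.1) and 37.5% (33.4 to 41.8), and B2m in 35.5% (32.5 to 38.6) and 30.9% (27.0 to 34.9). For these 3 genes the intervals overlapped. Tapbp was seen in 7.92% (6.30 to 9.80) of UT and 2.04% (1.02 to 3.63) of IMQ cells, without overlap. With up to 10% mitochondrial UMIs the shares were 6.22% and 4.13%, with overlap. Each set of barcodes was thinned in its own random draw, so these shares also differ by the draw. In UT, 77 thinned cells had Tapbp at the limit of 5% and 75 in the larger set at 10%. Without thinning Tapbp was seen in 15.1% of UT and 5.25% of IMQ cells at 5%. At 10% these were 15.3% (13.4 to 17.4) and 7.38% (5.87 to 9.14). Among the kept cells thinned to 400 UMIs, 32.5% of UT and 37.0% of IMQ cells showed none of the 4 genes. Cells with both B2m and a heavy chain made up 20.8% in UT (18.3 to 23.5) and 15.6% in IMQ (12.6 to 19.0), and B2m, H2-K1 and H2-D1 together in 4.42% and 5.20%. Since class I is expressed on nearly every nucleated cell, no cell type of the sample could give a background share for free RNA.

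Integration and clustering of the kept cells, run without the class I genes among the variable genes, gave 6 clusters. Clusters 1 (710 cells, led by Pi16 and Lbp), 2 (433 cells, led by Igfbp2), 3 (372 cells, led by Gal and Klk1b27) and 6 (28 cells, led by Coch) were fibroblast-like. Cluster 4 (39 cells, led by Malat1 and keratins) and cluster 5 (34 cells, led by Cd74 and other class II genes) were left unnamed. The 4 class I genes summed to 3582 CPM in cluster 1, 3559 in cluster 2 and 3739 in cluster 3, with overlapping intervals. With the libraries pooled, cluster 5 was highest at 5422 CPM (4540 to 6426) and cluster 6 lowest at 1902 CPM (1393 to 2537), close to cluster 4 at 2202 CPM (2009 to 2409). In UT, cluster 5 stood at 6106 CPM (4999 to 7385), cluster 4 at 1977 CPM (1775 to 2195) and cluster 6 at 2074 CPM (1507 to 2784). In IMQ, cluster 5 held 9 cells at 3766 CPM (2482 to 5479) and cluster 4 held 7 cells at 3215 CPM (2680 to 3825). Both intervals overlapped those of clusters 1 to 3 in IMQ, which stood at 3276, 3463 and 3338 CPM. Cluster 6 held 5 IMQ cells with 1 UMI each of B2m and H2-D1. Its level there was 674 CPM (81.6 to 2433), with an interval below those of clusters 1 to 3. At a resolution of 0.8 the cluster led by Coch held 6 IMQ cells at 1897 CPM (867 to 3601). Clusters 1 to 3 differed in which chain they held. H2-K1 gave 30.5% (28.3 to 32.7) of the heavy-chain UMIs in cluster 1, 22.9% (19.5 to 26.7) in cluster 2 and 26.9% (23.4 to 30.6) in cluster 3. B2m had its highest level among these in cluster 2, 1611 CPM (1469 to 1763). Cluster 1 held 1160 CPM (1085 to 1239), and cluster 3 held 1146 CPM (1016 to 1288). Both features of cluster 2 were present in each library, with an H2-K1 share of 22.6% in UT and 23.7% in IMQ and B2m at 1599 and 1640 CPM.

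Within the large clusters the comparison of the libraries was like that over all cells. The log2 ratio of B2m was -0.15 in cluster 1, 0.04 in cluster 2 and -0.35 in cluster 3, each with an interval that held 0. That of H2-K1 ran from -0.05 to 0.07 over these clusters. H2-D1 was lower in IMQ in cluster 1, at 1613 and 1398 CPM and a log2 ratio of -0.21 (-0.40 to -0.02), and had ratios of -0.06 and -0.22 in clusters 2 and 3, with intervals that held 0. Tapbp was lower in each of the 3 clusters, at 230 and 99.5 CPM in cluster 1, 160 and 34.4 CPM in cluster 2 and 225 and 87.3 CPM in cluster 3. In cluster 4, B2m and H2-D1 had higher levels in IMQ. Its 32 UT cells held 653 CPM of B2m and its 7 IMQ cells 1190 CPM, and H2-D1 stood at 839 and 1342 CPM. For H2-K1 and Tapbp the intervals held 0, with a log2 ratio of 0.40 (-0.33 to 1.07) for H2-K1 and levels of 22.5 and 75.9 CPM for Tapbp from 4 and 3 UMIs. The keratinocyte genes leading that cluster were among the markers at or near 0 in IMQ, and their part in the difference was not tested. In the fibroblast-like clusters alone, 988 UT and 555 IMQ cells, the log2 ratio was 0.05 for H2-K1, -0.15 (-0.29 to -0.01) for H2-D1, -0.15 (-0.30 to 0.01) for B2m and -1.34 for Tapbp.

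**Figure D3:**
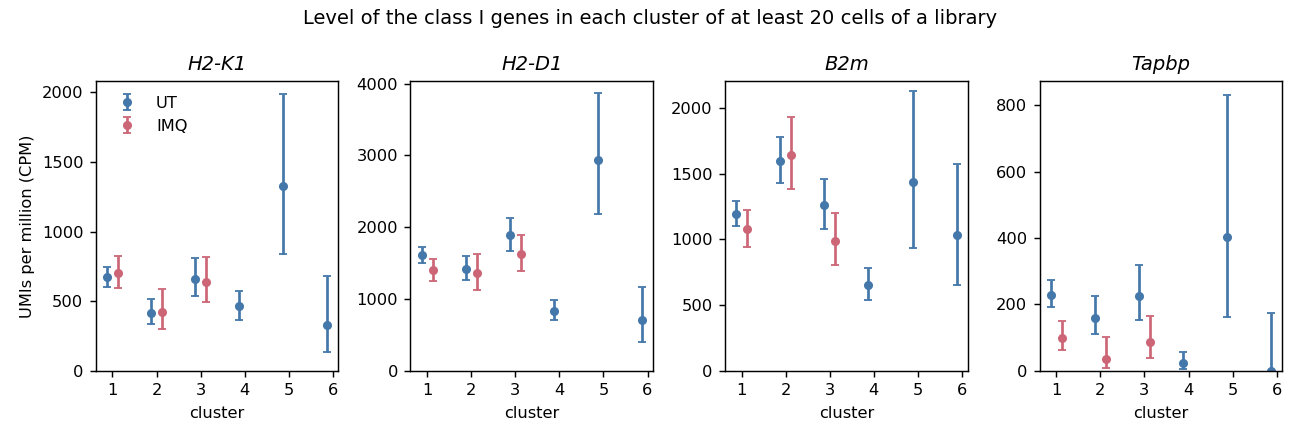
Level of each class I gene in CPM (vertical axis, from 0) by cluster (horizontal axis) in UT (blue) and IMQ (red), with exact 95% Poisson intervals, for clusters with at least 20 cells of a library. B2m is highest in cluster 2 among clusters 1 to 3 in both libraries, where H2-K1 is lowest, and Tapbp is lower in IMQ in clusters 1 to 3.

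Over the 9 combinations of cluster and library with at least 20 cells, the genes whose level followed the summed class I level most closely, among 1118 genes at 100 CPM or more, were Ndufc2 (Pearson r = 0.91), Tmem160 (0.88), Atp5o (0.88), Atp5c1 (0.88) and Psmb8 (0.87). Psmb8 encodes an interferon-inducible catalytic subunit of the immunoproteasome, and Ndufc2, Atp5o and Atp5c1 encode subunits of the respiratory chain and ATP synthase. Among the members, r was 0.87 between the heavy chains and 0.92 between H2-D1 and Tapbp, but 0.15 between B2m and H2-K1. The class I level and that of each of the 5 genes were highest in cluster 5 of UT, where each of the 5 had from 5 to 16 UMIs, and without that point their r was between 0.76 and 0.83. Without it r was 0.75 between the heavy chains, 0.91 between H2-D1 and Tapbp and -0.09 between B2m and H2-K1. These points share 2 libraries and differ in depth, and the correlations are a description.

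Other heavy chains of the MHC and class I-like molecules were the only list of pathway genes, besides the interferon-stimulated genes, with a median ratio above 0 in the kept barcodes. Of 19 genes listed, 16 were in the matrices and 9 had at least 10 UMIs, with a median log2 ratio of 0.32. Of the 9, 1 was at least 2-fold higher in IMQ, against 4.03% of all genes, and none 2-fold lower, against 32.1%. The median was -0.58 over all deposited barcodes, against -1.04 for all genes, with none of the 9 at least 2-fold higher and 1 at least 2-fold lower. Of all genes in that set, 2.36% were at least 2-fold higher and 52.3% at least 2-fold lower. H2-Q4, a non-classical heavy chain of the Q region, had 90 UMIs in 82 UT cells and 108 UMIs in 41 IMQ cells, or 81.5 and 234 CPM, a log2 ratio of 1.52 (1.11 to 1.94). A single IMQ cell held 27 of these UMIs, and the ratio was 1.17 without the richest cell of each library. Over all deposited barcodes H2-Q4 stood at 91.9 and 115 CPM, with a log2 ratio of 0.32 (0.02 to 0.63). H2-T23, which encodes Qa-1, had 195 and 258 CPM, with a log2 ratio of 0.41 (0.07 to 0.74) that was 0.32 (-0.03 to 0.66) without the richest cells and -0.03 (-0.25 to 0.19) over all deposited barcodes. Fcgrt, the neonatal Fc receptor that also pairs with B2m, had 414 and 260 CPM, with a log2 ratio of -0.67. Of the 3′ windows, 9.49% for H2-Q4 and 13.4% for H2-T23 occurred in transcripts of other genes, so their counts are less certain than those of the members.

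Calreticulin and ERp57 of the loading complex had lower levels in IMQ, while the list as a whole lay near all genes. Of 7 loading genes 6 were measured, with a median log2 ratio of -0.74. Of the 6, 2 were at least 2-fold lower, near the share of 32.1% among all genes, and none 2-fold higher, against 4.03%. Calr, which encodes the chaperone calreticulin that holds the empty heavy chain, had 584 and 245 CPM, a log2 ratio of -1.25 (-1.55 to -0.96). Pdia3, which encodes the disulfide isomerase ERp57 bound to tapasin, had 468 and 223 CPM, a log2 ratio of -1.07 (-1.39 to -0.76). Canx, the calnexin gene, had 225 and 148 CPM, a log2 ratio of -0.61 that equalled the median of all genes. Calr, Pdia3 and Canx serve all proteins folded in the endoplasmic reticulum and not class I alone. Calr stood at -1.25 and Pdia3 at -1.61 over all deposited barcodes, where the median gene stood at -1.04 and 52.3% of genes were at least 2-fold lower. The transporter genes Tap1 and Tap2 had few UMIs, 6 and 2 for the former and 44 and 10 for the latter, and log2 ratios of -0.32 and -0.88 whose intervals held 0.

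The genes of peptide supply with the lowest ratios were those of the proteasome activator. Of 11 genes, all measured, 1 was at least 2-fold higher and 3 at least 2-fold lower, against 4.03% and 32.1% of all genes. The median log2 ratio was -0.90. Psme1 and Psme2, which encode the proteasome activator PA28, had 138 and 41.2 CPM and 178 and 45.6 CPM, log2 ratios of -1.74 (-2.51 to -1.05) and -1.97 (-2.69 to -1.32). Psmb8 had 159 and 75.9 CPM, a log2 ratio of -1.07. The constitutive subunit Psmb6 stood at -0.90 (-1.37 to -0.45). Ubb, a polyubiquitin gene, stood at 0.33. Psmb9, another immunoproteasome subunit that interferon-gamma is known to raise, stood at -0.55 (-1.52 to 0.33), near the median of all genes.

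Among regulators of the pathway, 18 of 24 genes were measured, of which 2 were at least 2-fold higher and 7 at least 2-fold lower, against 4.03% and 32.1% of all genes, with a median log2 ratio of -0.67, near that of all genes. Ifngr1, a chain of the interferon-gamma receptor, had 69 UMIs in 52 UT cells and 74 in 58 IMQ cells, or 62.5 and 161 CPM, a log2 ratio of 1.36 (0.87 to 1.86). Over all deposited barcodes it was 0.48 (0.15 to 0.81). Ifnar2 and Jak1, which act in interferon signalling, stood at -0.72 and -0.91. Irf2, a repressor and activator at interferon-response elements, had 42 UMIs in UT and 6 in IMQ, and Nfkb1, which encodes the p50 subunit of NF-kB, 48 and 5, with log2 ratios of -1.55 (-3.07 to -0.30) and -2.00 (-3.69 to -0.68). Nlrc5, the class I transactivator, had 6 UMIs in UT and 0 in IMQ, and Irf1 had 26 and 14, too few to order the libraries.

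Interferon-stimulated genes held most of the higher values. Of 24 genes 18 were measured, of which 8 were at least 2-fold higher, against 4.03% of all genes, and 3 at least 2-fold lower, against 32.1%, with a median log2 ratio of 0.15. Igtp, Irgm1 and Iigp1, which encode immunity-related GTPases, had 4, 4 and 6 UMIs in UT and 11, 10 and 16 in IMQ, with log2 ratios of 2.72, 2.58 and 2.68. Gbp2, which encodes a guanylate-binding protein, had 38 UMIs in each library, 34.4 and 82.4 CPM, a log2 ratio of 1.26 (0.57 to 1.95). A single IMQ cell held 13 of the 38 UMIs, and without the richest cell of each library the ratio was 0.78 (-0.03 to 1.56). With up to 10% mitochondrial UMIs it was 0.46 (-0.16 to 1.06), and over all deposited barcodes 0.29 (-0.20 to 0.79). The chemokine Cxcl9 had 2 UMIs in UT and 39 in IMQ, all from 4 IMQ cells, and the 9 Cxcl10 UMIs of IMQ came from 1 cell. Ifi27l2a and Ifitm1 stood at 1.50 and 1.03, the latter 0.53 without the richest cells. The abundant Ifitm2 and Ifitm3, which encode membrane proteins that restrict viral entry, were not higher, at -0.60 and -0.38, and Ifi27 was lower at -1.19.

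The class II genes, which present peptides from the endosome in professional antigen-presenting cells, rested on a few cells. All 5 measured genes were at least 2-fold lower in IMQ, against 32.1% of all genes, with a median log2 ratio of -3.52. Cd74, the invariant chain, had 798 UMIs in 20 UT cells and 29 in 12 IMQ cells, but 710 of the UT UMIs came from 1 cell. Without the richest cells its log2 ratio was -1.29 (-2.19 to -0.49), and that of H2-Eb1 was -3.02 (-6.12 to -1.07). Those of H2-Aa and H2-Ab1 were then -1.10 (-2.51 to 0.09) and -1.55 (-3.93 to 0.20), with intervals that held 0. Leaving out cluster 5, to which class II genes belonged, moved the ratio of B2m to -0.02, of H2-K1 to 0.10, of H2-D1 to -0.04 and of Tapbp to -1.12.

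**Figure D4:**
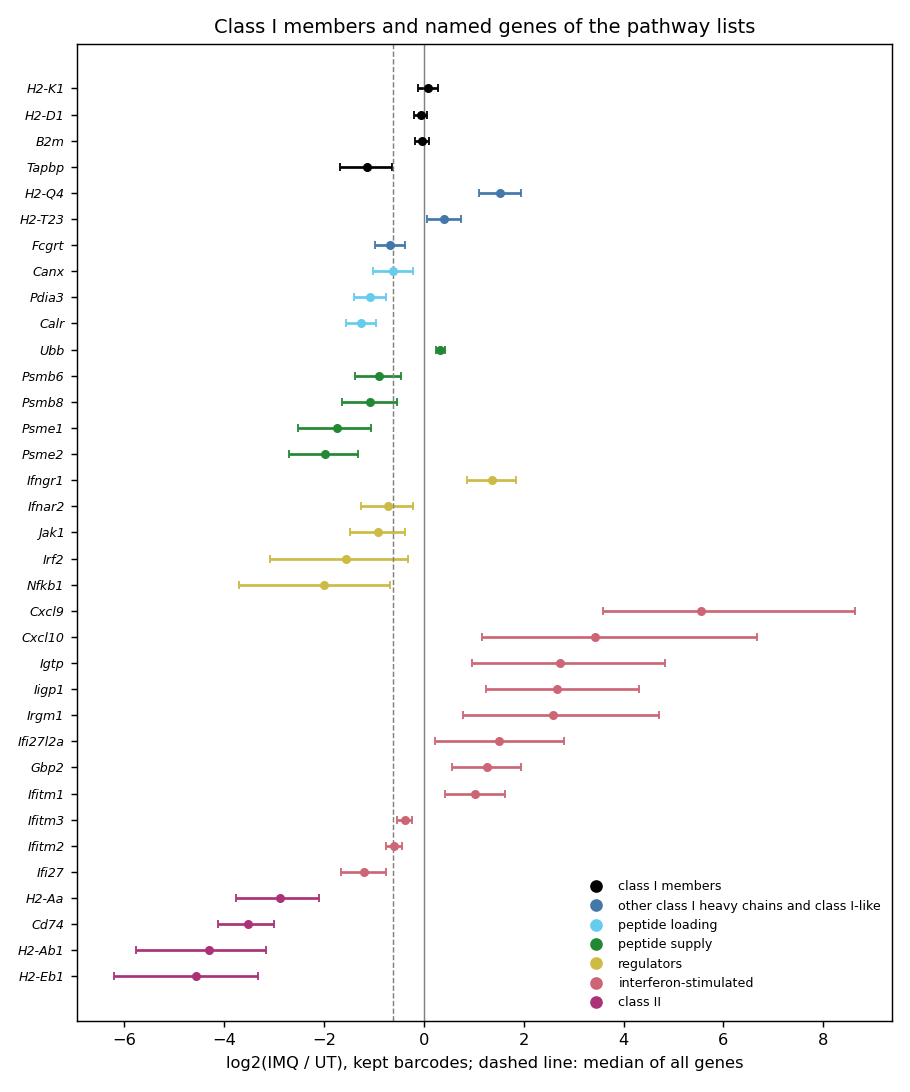
Log2 ratio of IMQ over UT in the kept barcodes (horizontal axis) for the 4 class I genes and the named genes of 6 lists, with exact 95% intervals. The dashed line marks the median of all genes, -0.61, and H2-K1, H2-D1 and B2m lie to its right with H2-Q4 and most interferon-stimulated genes, Tapbp with Calr, Pdia3 and the PA28 genes to its left, and Canx on it.

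In IMQ, the cells with a UMI of 8 selected interferon-stimulated genes also carried more class I. Cells thinned to 400 UMIs were divided by whether they held a UMI of Gbp2, Gbp3, Gbp4, Igtp, Irgm1, Iigp1, Cxcl9 or Cxcl10, 8 genes that were picked from the interferon-stimulated list after their values had been seen. In IMQ the 21 cells with such a UMI had 75 class I UMIs, or 8929 CPM (7023 to 11192), and the 517 cells without one had 632, or 3056 CPM (2822 to 3304). In UT the 20 cells with such a UMI had 4250 CPM (2943 to 5939) and the 952 without one 3687 CPM (3497 to 3885). The intervals were thus apart in IMQ and overlapped in UT. In IMQ, B2m stood at 3929 CPM (2704 to 5517) in the cells with and 1069 CPM (932 to 1219) in those without, H2-D1 at 3333 and 1373 CPM and H2-K1 at 1548 and 556 CPM, each with separate intervals. Tapbp had 1 UMI in the cells with, which allows no comparison.

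Of the 21 IMQ cells, 10 (47.6%) had at least 4 class I UMIs among their 400, against 35 of 517 (6.77%), and 3 had none. These 10 cells held 65 of the 75 class I UMIs. The median of the 21 cells was 2 class I UMIs, the highest 11, and without that cell the level was 8000 CPM. Of the 21 cells 19 lay in fibroblast-like clusters. No UMI of the 9 leukocyte markers and 2 of class II genes were found among the 8400 UMIs of the 21 cells, and the fibroblast markers made up 85714 CPM, against 127408 CPM in the cells without. With up to 10% mitochondrial UMIs, 37 IMQ cells had 8851 CPM (7401 to 10503) and the other 956 had 3130 CPM, and 34 UT cells had 4485 CPM (3431 to 5762) and the other 1171 had 3749 CPM. All 21 list genes below 100 CPM in UT, which include the 8, were then used in their place. In IMQ the contrast was smaller, with 5047 CPM (4136 to 6099) in 53 cells and 3093 CPM in the rest. Those 53 cells held 107 class I UMIs, 75 of them in the 21 cells above. The remaining cells of the 53 thus held no more class I UMIs per cell than the 485 cells without a list gene, which held 600. The contrast therefore came from the cells with a UMI of the 8 selected genes. In UT the level was 3385 CPM (2829 to 4020) in 96 cells and 3733 CPM in the rest. No interval was taken for the cells with a UMI of only the other list genes. The cells of a library are not replicates, and whether more mice would show the same was not tested.

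**Figure D5:**
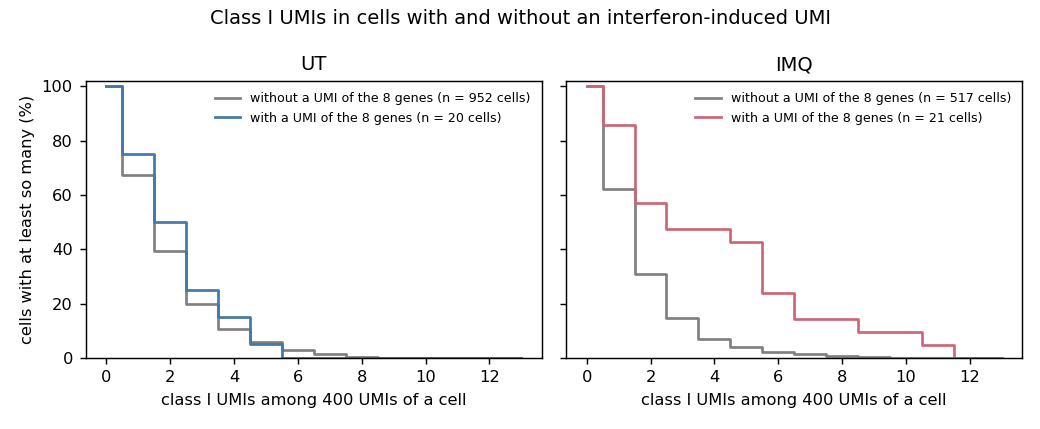
Share of cells in percent (vertical axis) with at least a given number of class I UMIs among 400 UMIs (horizontal axis), for cells with (coloured) and without (grey) a UMI of 8 interferon-induced genes in UT (left) and IMQ (right). The curves lie close together in UT, and in IMQ 47.6% of the cells with such a UMI and 6.77% of those without have at least 4.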

How the data were processed

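The authors deposited, per Chromium 3′ v3 library, a Cell Ranger matrix of raw UMI counts, genes by barcodes. Per the file headers, the versions were 3.0.0 for UT and 3.1.0 for IMQ, and per the labels the build was mm10. Whether this difference of version alters a level was not tested. Of 31053 identifiers 31011 were found in GENCODE M21 (GRCm38). Use of strand in counting was not given in the sources used here, so overlapping genes may share reads: besides the members, H2-Q4 with Gm11131, H2-T23 with A930015D03Rik, Pdia3 with Catsper2, Psmb8 with Gm20496, Psme1 with Emc9, Igtp with Irgm2 and Cxcl10 with Art3.

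Barcodes were kept by the limits on genes and mitochondrial UMIs that the study's methods give. The deposited IMQ matrix held fewer barcodes than the study's own number of filtered cells, so it may not be the matrix the study analysed. Of the barcode sequences 1 was in both libraries, and it was not among the kept ones. Doublets were removed only in an alternative, as the 12 UT and 23 IMQ barcodes that Scrublet (scanpy 1.11.5) scored highest. UMIs were summed per library over 1524079 UMIs in UT and 2358303 in IMQ before any filter. Sums have Poisson, shares Clopper-Pearson and ratios conditional binomial intervals (scipy 1.17.1), checked on simulated data. Thinning to 400 UMIs left out 73 UT and 33 IMQ cells. Integration and clustering used Seurat 5.3.0 (R 4.3.3) with 2000 variable genes, 38 class I and pathway genes taken out of them, 20 principal components and a resolution of 0.5. Fibroblast-like clusters had 3 or more of the 7 fibroblast markers, each in 20% of cells or more, and fewer than 3 enriched markers of any other type. Scaling alternatives used edgeR 4.0.16 (TMM) and medians of ratios.

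Named genes were the members, the 3 genes of each list with most UMIs, every list gene past 2-fold with an interval leaving out 0, and the 5 genes most like the summed class I level. Some genes that this rule covers are not reported here. Psmb9, Irf1, Nlrc5, Tap1 and Tap2 were named after their values were seen. The members and lists were chosen with earlier results of these data known.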

Additional observations from a re-analysis of the deposited data

How the results depend on the processing

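With 1 library per group no library could be left out, and no paired analysis was possible because no result comes from a test. Over 13 alternatives the log2 ratio of Tapbp stayed below 0 in all 13, from -1.34 to -0.035, that of B2m ran from -0.37 to 0.45, of H2-K1 from -0.39 to 0.58 and of H2-D1 from -0.35 to 0.43. Over all deposited barcodes the ratios were -0.37 for B2m, -0.39 for H2-K1, -0.35 for H2-D1 and -0.57 for Tapbp, the median of all genes was -1.04, and 5191 genes (52.3%) and 33 of 76 listed pathway genes were at least 2-fold lower in IMQ, against 2611 (32.1%) and 20 of 67 in the kept ones. With at least 500 genes they were 0.44, 0.58, 0.19 and -0.58. TMM scaling gave 0.45 for B2m, 0.57 for H2-K1 and 0.43 for H2-D1, and median-of-ratios scaling 0.45, 0.56 and 0.42, since both scale on the bulk of the genes, and Tapbp, at -0.65 and -0.66, was then less than 2-fold lower. CPM without the RNA classes gave 0.23, 0.34 and 0.20, and -0.88 for Tapbp. The same over all deposited barcodes, an alternative chosen after seeing the data, as were the split by UMI total, the ratios without the richest cells and the correlations without a cluster, gave 0.17 for B2m, 0.19 for H2-D1 and -0.035 for Tapbp. Without thinning, UT cells had a UMI of B2m in 54.4%, H2-K1 in 34.4%, H2-D1 in 60.8% and Tapbp in 15.1%, and IMQ cells in 44.0%, 31.2%, 53.6% and 5.25%. With up to 10% mitochondrial UMIs and thinning, in a random draw of its own, Tapbp was seen in 6.22% and 4.13%. Of 83 values recomputed, 33 moved beyond their counting interval or by over 1.5 times, and 50 did not. Tapbp in the kept barcodes under TMM, median-of-ratios and CPM without the RNA classes was among those that did not. Clusters at a resolution of 0.8 kept the highest class I level (5536 CPM) and the lowest (2042 CPM) within the intervals given. Apart from the constructions named, the cause of each shift was not tested. The 37 IMQ barcodes with at least 500 genes and the 38 Tapbp UMIs limit what could be seen.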
